A study of Arabidopsis thaliana with 22 samples.

Results

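The genes described here are those whose transcripts were already high in leaves of both genotypes that carry sal1-8, before any abscisic acid (ABA) was given. Probe sets naming a single gene were kept when the highest of the 8 group means was 4 or more on the log2 scale and when the mock means of sal1-8 and of ost1-2 sal1-8 each lay 1.5 or more above the wild type (WT) mock mean. All 6 of those mock arrays had to exceed every WT mock and ost1-2 mock array, the ost1-2 mock mean had to lie within 0.5 of WT mock, and the WT ABA mean had to lie within 0.75 of WT mock. This left 249 probe sets of 249 different genes, out of 16722 probe sets that name a single gene. All 249 were among the probe sets tested.

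The study asked whether loss of SAL1 restores ABA responses to a mutant that lacks the kinase OST1. Leaves of soil-grown plants about a month old were sprayed with 20 µM ABA or with a mock solution of ethanol. Leaves were taken 45 min after the spray according to the sample labels and the study's methods, although the protocol text in the labels gives a later time. WT plants were hybrids of the first generation from Col-0 crossed with Ler. The sal1-8 mutant, which the labels call alx8, has the Col-0 background and ost1-2 that of Ler, while ost1-2 sal1-8 is a homozygous line chosen from the second generation of their cross. Genotype and ecotype background therefore cannot be told apart in any comparison between genotypes, that of ost1-2 sal1-8 with sal1-8 included. The 22 arrays fall into 8 groups of 3, except that ost1-2 mock and ost1-2 ABA hold 2 each, and an array held leaf RNA of 1 sample.

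SAL1 is a chloroplast and mitochondrial phosphatase that removes the nucleotide 3′-phosphoadenosine 5′-phosphate (PAP). Without SAL1, PAP accumulates and inhibits the 5′ to 3′ exoribonucleases (XRNs), of which the nuclear ones degrade uncapped RNA, including the RNA left after a transcript has been cleaved at its polyadenylation site. OST1 is a protein kinase of ABA signaling that guard cells need for stomatal closure. Probe sets for SAL1, OST1 and the XRN genes were not analysed here, so the mutations were not checked by the targeted transcripts. Replicate arrays of a group correlated with each other at 0.959 to 0.982 on average, array medians lay between 4.60 and 5.0, and RCA, which encodes Rubisco activase of leaf mesophyll, lay between 11.4 and 12.1 on every array.

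Most of these genes were near the bottom of the intensity range in WT. Their median WT mock level was 3.67, against 5.44 over the tested probe sets, and 62.7% of them lay under 4 compared with 28.0% of the tested probe sets. For 128 of the 249, all 4 group means of WT and ost1-2 were under 4. In the mock groups that chose them, the median level was 6.33 in sal1-8 and 6.37 in ost1-2 sal1-8. The rise over WT mock had a median of 2.42 in sal1-8, with a range from 1.5 to 6.13, and of 2.34 in ost1-2 sal1-8, with a range from 1.53 to 5.47. On the linear scale those medians are 5.35-fold and 5.05-fold. In sal1-8, 65 genes rose by more than 3 and 7 by more than 5 on the log2 scale, as did 62 and 4 in ost1-2 sal1-8. These mock values selected the genes and carry no test. In bulk leaf tissue, a change in the share of a cell type and a change in RNA per cell cannot be told apart.

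**Figure D1:**
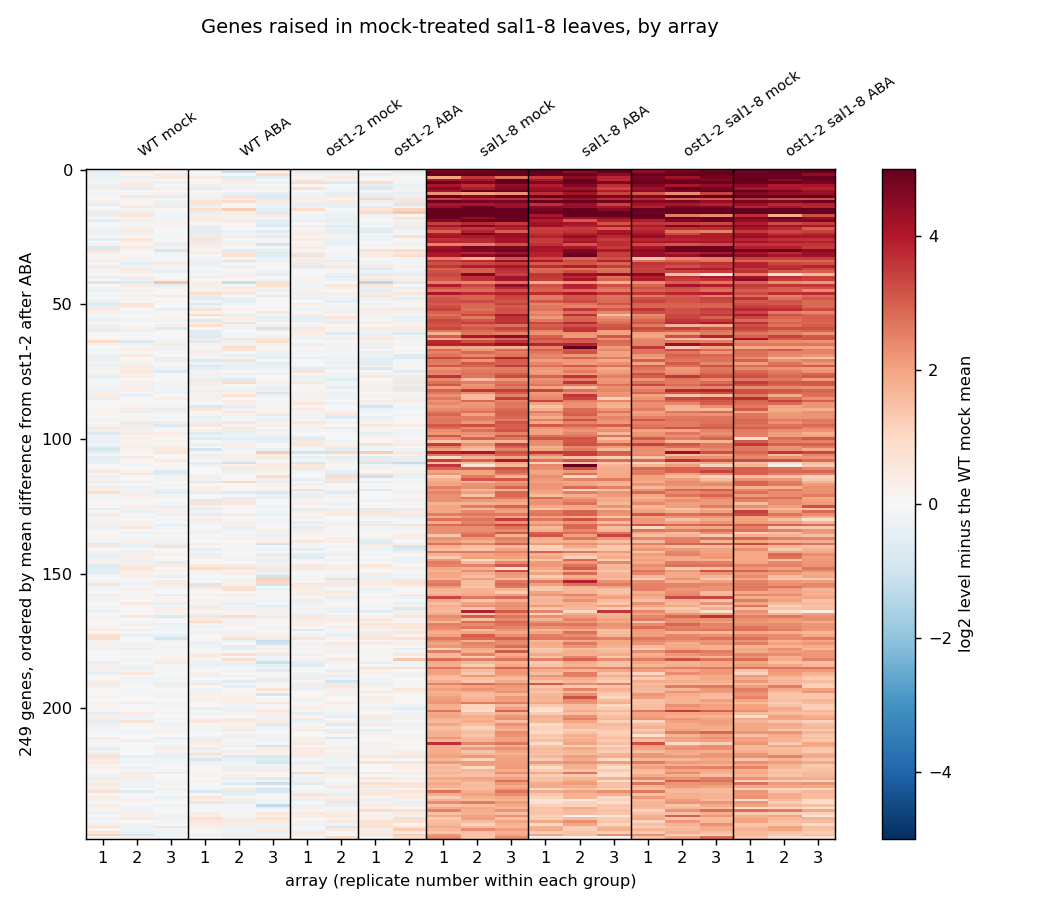
Level of each of the 249 genes (rows) on each of the 22 arrays (columns) minus the gene's WT mock mean, in log2 units, with rows ordered by the mean difference of the 2 sal1-8 genotypes from ost1-2 after ABA. Of the values on the 12 arrays of the sal1-8 genotypes, 98.4% lie more than 1 above the WT mock mean, compared with 0.683% on the WT and ost1-2 arrays. The mock arrays and the WT ABA arrays took part in choosing the genes, so these shares were partly set by the rule. AT2G21655 in the last row is pale in sal1-8 ABA.

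The ABA-treated arrays of ost1-2 and of both sal1-8 genotypes played no part beyond the level requirement in choosing the genes, and they were compared with each other. That requirement was met by 128 of the genes only through groups of the sal1-8 genotypes. For 37 genes, entry among the tested probe sets (the dimmest at 3.02) also rested on those groups alone. The calls are therefore not fully independent of the choice of the genes. After ABA, the genes stayed high in both sal1-8 genotypes. Relative to ost1-2 ABA, 242 of 249 were higher in sal1-8 ABA (limma, adjusted p below 0.05 with a difference of more than 1.5-fold), and 0 were lower. Among all tested probe sets, 11.5% were higher and 10.7% lower in that comparison. The median difference was 2.15, or 4.43-fold, against −0.09 over all tested probe sets, and it ranged from −0.23 to 5.53. In ost1-2 sal1-8 ABA, 240 of 249 were higher than in ost1-2 ABA and 0 were lower, where 9.11% of tested probe sets were higher and 4.14% lower. The median there was 2.28, or 4.87-fold, against 0.04 over all tested probe sets. Both comparisons use the same 2 ost1-2 ABA arrays. A total of 236 genes passed in both, beside 6.71% of the tested probe sets.

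The separation held array by array. In 246 of 249 genes all 3 sal1-8 ABA arrays lay above both ost1-2 ABA arrays, which was so for 24.4% of tested probe sets. The same was true of 248 genes for ost1-2 sal1-8 ABA, beside 26.8% of tested probe sets. The median over the genes on a single array lay between 3.62 and 3.89 on the 10 WT and ost1-2 arrays and between 6.10 and 6.60 on the 12 arrays of the sal1-8 genotypes. Mock and WT ABA arrays took part in choosing the genes, so on them this gap was set by the rule. On the remaining arrays the median was 3.76 and 3.89 in ost1-2 ABA. It was 6.14, 6.49 and 6.10 in sal1-8 ABA and 6.47, 6.25 and 6.25 in ost1-2 sal1-8 ABA. Sample numbers in the labels were grouped here into 7 runs of nearby numbers, each of a single treatment. The labels do not give these runs, and numbers within a run are not always consecutive, as with 110 and 113. Adjacent numbers of different treatment, such as 117 and 118, fell in different runs. In the only run that held both sal1-8 ABA and ost1-2 ABA, the median difference was 2.12 and all 249 genes were above 0. In the only run that held both ost1-2 sal1-8 ABA and ost1-2 ABA, it was 2.26, again with 249 above 0.

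The differences without ABA, which chose the genes, were set beside those after ABA. Across the 249 genes, the sal1-8 mock minus WT mock difference and the sal1-8 ABA minus ost1-2 ABA difference, which share no array, correlated at r = 0.839, and the corresponding values for ost1-2 sal1-8 at r = 0.861. Over all tested probe sets r was 0.757 and 0.733. Genes are not independent replicates, and these correlations are given as a description. The median ratio of the difference after ABA to the difference without it was 0.896 in sal1-8 and 0.934 in ost1-2 sal1-8. In 190 genes for sal1-8 and in 153 for ost1-2 sal1-8 the difference after ABA was the smaller one, and only the mock arrays had been chosen for a large difference.

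**Figure D2:**
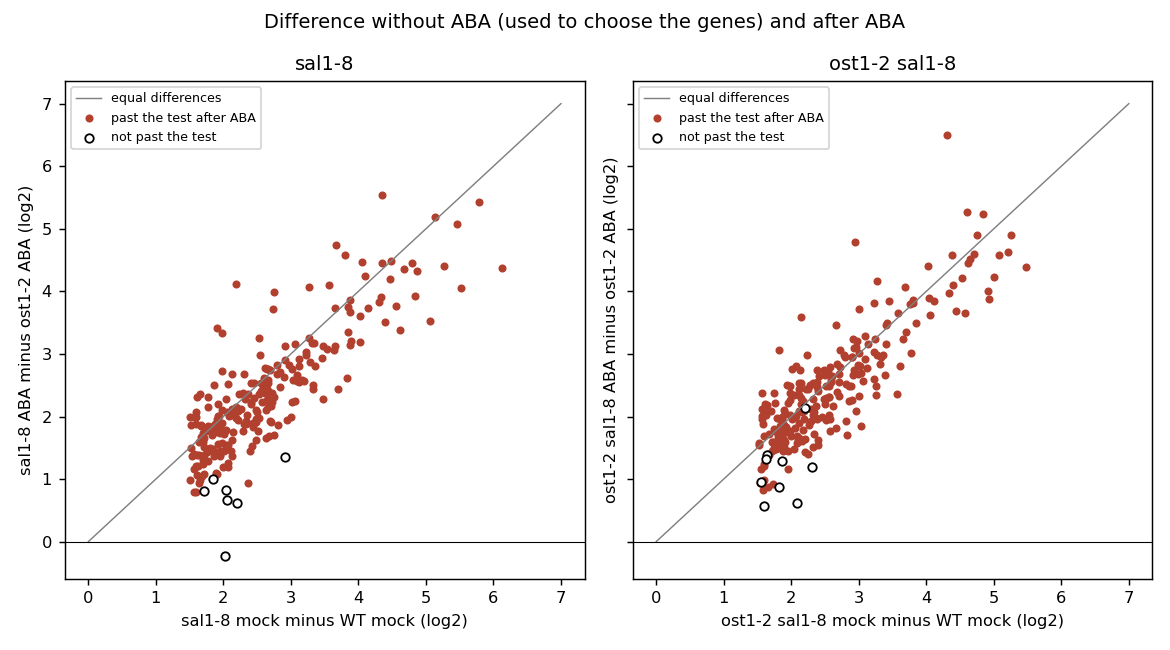
For each of the 249 genes, the log2 difference from WT mock without ABA (x axis, used to choose the genes) and from ost1-2 ABA after ABA (y axis), for sal1-8 (left) and ost1-2 sal1-8 (right). Filled points passed the limma test after ABA (242 and 240 genes), open points did not, and the line marks equal differences.

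The genes with the highest mean difference after ABA are named here by locus, since the gene table used gives them no symbol. AT5G25600 lay at 2.80 and 3.43 on the ost1-2 ABA arrays, at 8.95, 8.69 and 8.32 on the sal1-8 ABA arrays and at 9.90, 9.60 and 9.34 on the ost1-2 sal1-8 ABA arrays. These 3 sets of arrays did not overlap. Its differences from ost1-2 ABA were 5.53 ± 0.25 (SE, n = 3 and 2, limma adjusted p = 2.7e-11) in sal1-8 and 6.50 ± 0.25 (limma adjusted p = 4.4e-12) in ost1-2 sal1-8, or 46.4-fold and 90.5-fold. AT5G33370 was at 2.88 and 2.53 in ost1-2 ABA, at 8.87, 7.52 and 8.01 in sal1-8 ABA and at 7.85, 8.02 and 7.94 in ost1-2 sal1-8 ABA. The sal1-8 genotypes overlapped each other there, and both stood well above ost1-2, by 5.43 ± 0.42 and 5.23 ± 0.42 (SE). AT2G04440 was at 3.18 and 2.43 in ost1-2 ABA, at 8.22, 8.19 and 7.24 in sal1-8 ABA and at 8.07, 7.88 and 7.14 in ost1-2 sal1-8 ABA. It too overlapped between the sal1-8 genotypes, with differences from ost1-2 ABA of 5.08 ± 0.35 and 4.89 ± 0.35 (SE).

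The other 9 of the 12 highest were AT5G06520, AT2G34290, AT5G06010, AT5G35688, AT4G38560, AT2G20970, AT1G76170, AT3G45660 and AT1G64820, with mean differences from 4.45 to 4.63. All passed the test in both comparisons. AT2G20970 illustrates a tight pattern: its 10 WT and ost1-2 arrays lay between 2.61 and 2.98, and its 12 arrays of the sal1-8 genotypes between 6.78 and 7.80. AT2G34290 was dim outside the sal1-8 genotypes, with 1.81 and 1.85 on the ost1-2 ABA arrays, and reached 5.50 to 6.73 in sal1-8 ABA and 6.26 to 7.36 in ost1-2 sal1-8 ABA. The largest rises without ABA belonged to AT4G29030 in sal1-8 (6.13) and AT3G04410 in ost1-2 sal1-8 (5.47), and both were picked out for those values, which are not independent of the choice of the genes. AT4G29030 was higher in ost1-2 ABA (4.42 and 4.78) than in ost1-2 mock (3.53 and 3.20), and its differences after ABA were 4.37 ± 0.31 and 4.00 ± 0.31 (SE).

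At the other end, 13 genes missed the test in at least 1 of the comparisons with ost1-2 ABA, 7 in sal1-8 and 9 in ost1-2 sal1-8, and 3 missed it in both. The 4 genes with the lowest mean difference were AT2G21655, AT2G43800, AT5G25580 and AT5G45960. AT2G21655 was at 4.51, 3.57 and 4.50 in sal1-8 mock but at 2.41, 2.31 and 2.21 in sal1-8 ABA, within the 2.05 and 3.03 of ost1-2 ABA. Its differences from ost1-2 ABA were −0.23 ± 0.38 (SE, limma adjusted p = 0.69) in sal1-8 and 0.62 ± 0.38 (SE, limma adjusted p = 0.32) in ost1-2 sal1-8, and the former was the only negative value among the 249. AT2G43800 differed by 1.01 ± 0.43 (limma adjusted p = 0.095) and 0.57 ± 0.43 (limma adjusted p = 0.44), with ost1-2 ABA arrays at 4.93 and 5.52. AT5G25580 passed in both, with differences of 0.79 ± 0.24 and 0.94 ± 0.24 (SE), but in neither once replicate 1 (0.78 and 0.93) or 2 (0.80 and 0.95) of ost1-2 ABA was left out, nor in sal1-8 without replicate 2 of sal1-8 ABA (0.72). With the run of sample numbers as a fixed block it passed in neither (limma adjusted p = 0.084 and 0.064). AT5G45960 passed only in ost1-2 sal1-8, at 0.93 ± 0.30 (limma adjusted p = 0.047) beside 0.83 ± 0.30 (limma adjusted p = 0.053) in sal1-8, and the difference between the sal1-8 genotypes was 0.10 ± 0.27. Those of AT5G45960 rested on the ost1-2 ABA arrays, at 3.79 and 4.79: without replicate 1 of them the ost1-2 sal1-8 value was 0.42, and without replicate 2 the sal1-8 value was 1.33 and passed. Its call in ost1-2 sal1-8 was lost under 16 of 33 alternatives and that in sal1-8 gained under 11.

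**Figure D3:**
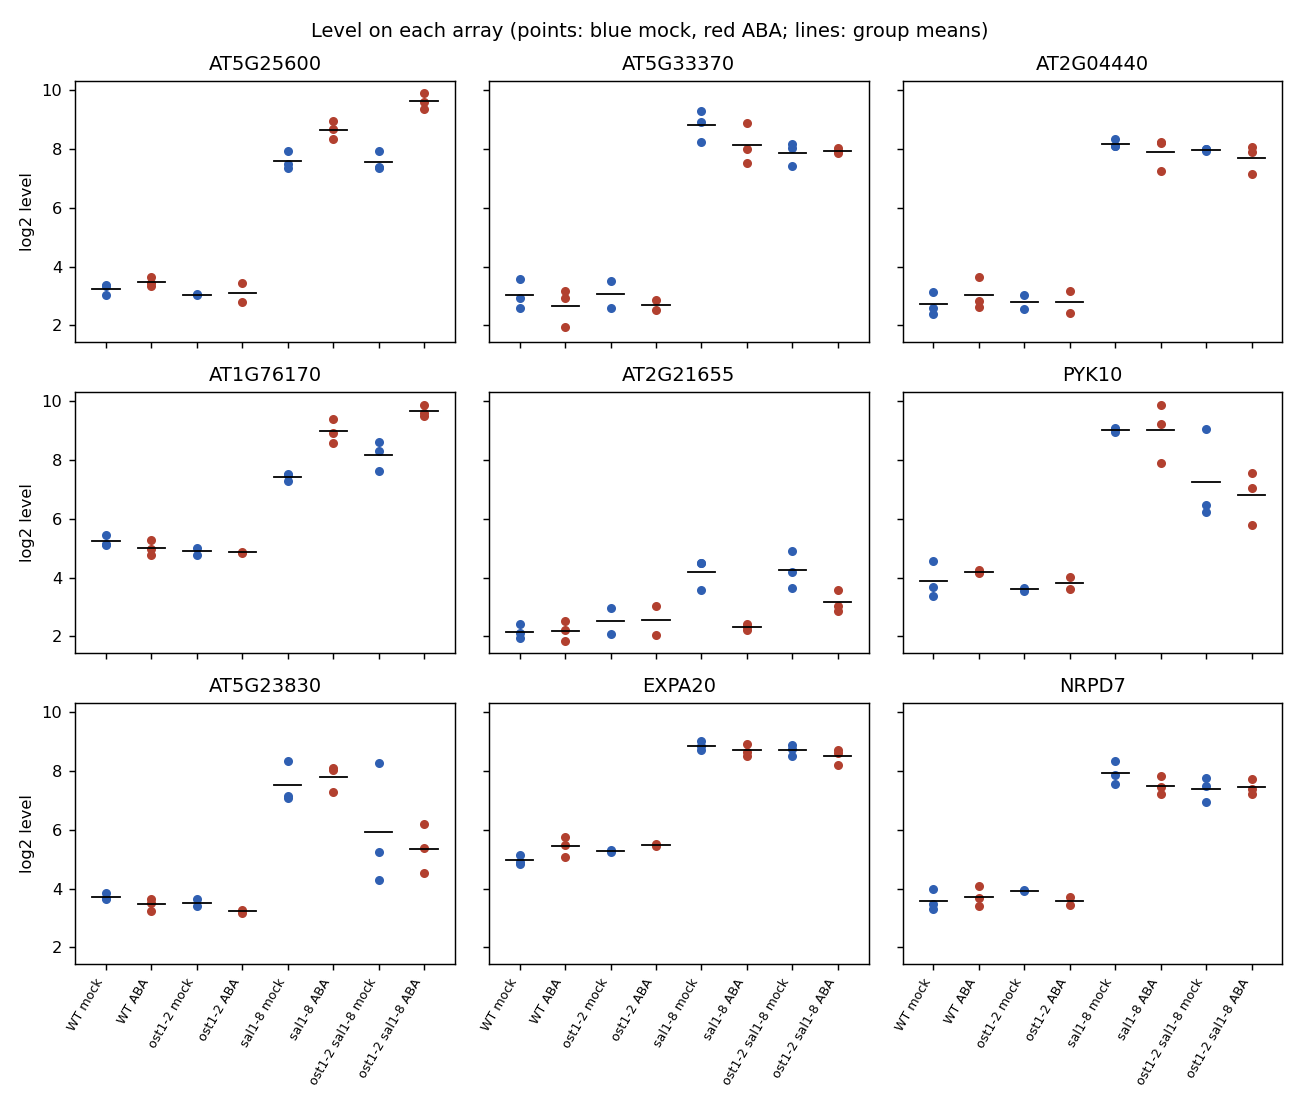
Log2 level on each array (points, blue for mock and red for ABA) and group mean (lines) of 9 of the 249 genes in all 8 groups. Levels in WT and ost1-2 lie at 5.77 or lower in every panel, and the sal1-8 groups lie above them except for AT2G21655 after ABA.

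Between the 2 sal1-8 genotypes after ABA, the shares of the 249 genes that passed were close to those over all probe sets. Of the 249 genes, 3 were higher and 8 lower in ost1-2 sal1-8 ABA than in sal1-8 ABA by the limma test, where 2.80% of tested probe sets were higher and 2.60% lower, and 55 (22.1%) had an unadjusted p under 0.05, as did 21.0% of tested probe sets. The median difference was 0.16 for these genes and 0.14 for all tested probe sets. It was 0.18 and 0.17 within the 2 runs that held both groups. With each array centred on its median, 2 genes were higher and 9 lower, while the split over all tested probe sets went from 386 higher and 358 lower to 271 higher and 392 lower. The same step took the split for ost1-2 sal1-8 ABA against ost1-2 ABA from 1255 higher and 570 lower to 1002 and 881.

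The 3 genes higher in ost1-2 sal1-8 ABA were AT5G06520, AT5G25600 and TBL30. AT5G06520 was at 7.20, 8.16 and 7.51 in sal1-8 ABA and at 9.04, 8.87 and 8.83 in ost1-2 sal1-8 ABA, a difference of 1.29 ± 0.34 (SE, limma adjusted p = 0.032). Without ABA the same genotypes already differed by 1.84, with no overlap of arrays. The call on AT5G06520 was lost under 8 of 33 alternatives, among them the omission of replicate 1 (1.07) or 3 (1.23) of sal1-8 ABA or of any 1 of the ost1-2 sal1-8 ABA arrays (1.22 to 1.33), both rescalings of the arrays, and the fixed block of runs (limma adjusted p = 0.059). AT5G25600 differed by 0.97 ± 0.22 (limma adjusted p = 0.013), and its call was lost without replicate 3 of sal1-8 ABA (0.80) or replicate 1 of ost1-2 sal1-8 ABA (0.82). AT5G13620 and AT3G05600 came next in size, at 1.03 ± 0.34 (limma adjusted p = 0.089) and 0.96 ± 0.29 (limma adjusted p = 0.063), and did not pass, although the former did without replicate 3 of sal1-8 mock and the latter without replicate 3 of ost1-2 sal1-8 ABA or replicate 1 or 3 of ost1-2 sal1-8 mock.

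The lower genes were led by PYK10 and AT5G23830. PYK10 encodes a beta-glucosidase of endoplasmic reticulum bodies, abundant in roots and seedlings. It was the only tested cell type marker among the 249. The tested markers cover only part of their lists, with 1 gene each for mesophyll, guard cells, phloem, trichomes and roots. PYK10 was at 7.91, 9.88 and 9.21 in sal1-8 ABA and at 7.56, 5.79 and 7.05 in ost1-2 sal1-8 ABA. These arrays did not overlap, the difference was −2.2 ± 0.59 (SE, limma adjusted p = 0.033), and the call was lost without replicate 2 (−1.76) or 3 (−2.09) of sal1-8 ABA and without replicate 2 (−1.69) or 3 (−2.33) of ost1-2 sal1-8 ABA. Against ost1-2 ABA, PYK10 was higher by 5.19 ± 0.66 in sal1-8 and by 2.99 ± 0.66 (SE) in ost1-2 sal1-8, and the latter call was lost without replicate 1 of ost1-2 ABA (2.78) and with runs as a fixed block (2.28, limma adjusted p = 0.059). WT and ost1-2 arrays of PYK10 lay between 3.39 and 4.57. AT5G23830 was at 7.29, 8.04 and 8.09 in sal1-8 ABA and at 6.19, 4.53 and 5.37 in ost1-2 sal1-8 ABA, a difference of −2.45 ± 0.65 (SE, limma adjusted p = 0.032), whose call was lost without any 1 of the same 4 arrays (−2.45 to −2.03) and with runs as a fixed block (limma adjusted p = 0.056). The same array was highest for both genes among the ost1-2 sal1-8 mock arrays, at 9.05 for PYK10 beside 6.45 and 6.24, and at 8.25 for AT5G23830 beside 5.24 and 4.28. CCOAMT came next in size at −1.96 ± 0.67 (limma adjusted p = 0.097) and did not pass unless replicate 3 of sal1-8 ABA was left out (−2.63), and AT2G21237 after it at −1.30 ± 0.27 (limma adjusted p = 0.0057) and passed. The other 5 lower genes, AT2G01023, AT5G44973, AT2G45940, AT2G33850 and AT5G37590, differed by −1.24 to −0.62.

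Some arrays stood apart for a few of the genes. On replicate 2 of sal1-8 ABA, 13 of the 249 genes lay more than 1 above both other arrays of the group, as did 1.98% of tested probe sets. On replicate 1 of ost1-2 sal1-8 mock, 7 genes lay more than 1 above and 9 more than 1 below both others, beside 1.14% and 0.660% of tested probe sets. Every other sal1-8 or ost1-2 sal1-8 array held 0 to 4 such genes in either direction. Without replicate 2 of sal1-8 ABA, 234 genes passed against ost1-2 ABA, beside 9.80% of tested probe sets.

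A symbol was given for 23 of the 249 genes, and their description was chosen after their values were seen. After ABA, 22 of the 23 passed against ost1-2 in sal1-8, 22 in ost1-2 sal1-8 and 21 in both. The cell wall was represented by EXPA20, an expansin that loosens walls, by TBL30 and TBL31, of a family that acetylates wall polysaccharides, and by CCOAMT, a methyltransferase of the phenylpropanoid pathway. EXPA20 was at 5.46 and 5.52 in ost1-2 ABA, at 8.64, 8.93 and 8.52 in sal1-8 ABA and at 8.21, 8.62 and 8.70 in ost1-2 sal1-8 ABA. Its differences were 3.20 ± 0.20 (SE, limma adjusted p = 2.6e-09) and 3.02 ± 0.20 (limma adjusted p = 7.1e-09), and the arrays of the 2 sal1-8 genotypes overlapped. Another tested probe set of EXPA20 differed by only 0.36 and 0.48. TBL30 differed by 1.45 ± 0.26 and 2.28 ± 0.26 (SE), and TBL31 by 0.98 ± 0.27 and 1.60 ± 0.27 (SE). Between the sal1-8 genotypes after ABA, TBL30 differed by 0.84 ± 0.23 (limma adjusted p = 0.040). CCOAMT varied widely, at 4.83, 7.47 and 4.13 in sal1-8 ABA and at 4.09, 2.72 and 3.75 in ost1-2 sal1-8 ABA, and passed only in sal1-8, at 3.34 ± 0.75 (limma adjusted p = 0.0031).

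Peptide signals were CLE40, a peptide that restricts stem cell fate in the root tip, RALFL18, of the family named for rapid alkalinization, and RTFL13, a small protein of the ROTUNDIFOLIA-like family. CLE40 was at 3.19 and 3.01 in ost1-2 ABA and at 5.27 to 5.83 on all 6 ABA arrays of the sal1-8 genotypes. RALFL18 differed by 3.42 ± 0.63 in sal1-8 and by 2.12 ± 0.63 (SE) in ost1-2 sal1-8. Of the sal1-8 ABA arrays, at 5.77, 8.47 and 5.44, replicate 2 stood well above the others. RTFL13 passed in ost1-2 sal1-8 only, at 1.66 ± 0.49 (limma adjusted p = 0.028) beside 1.36 ± 0.49 (limma adjusted p = 0.050) in sal1-8, and the difference between the sal1-8 genotypes was 0.30 ± 0.44.

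Regulators of hormone responses were IAA34, an Aux/IAA repressor of auxin responses, RR18, a cytokinin response regulator, and EEL, a bZIP factor that acts in ABA-regulated gene expression of seeds. Their differences from ost1-2 ABA were 2.01 ± 0.28 and 1.70 ± 0.28 (SE) for IAA34. They were 1.75 ± 0.25 and 1.81 ± 0.25 for RR18, and 1.76 ± 0.30 and 1.45 ± 0.30 for EEL. All 3 passed in both genotypes. Transport was represented by SWEET16, a vacuolar sugar transporter, PUP15, of the purine permease family, and ATGLR1.2, a glutamate receptor-like channel. PUP15 was at 3.51 and 4.29 in ost1-2 ABA and at 6.84 to 7.99 in the sal1-8 genotypes after ABA, with differences of 2.99 ± 0.27 and 3.80 ± 0.27. SWEET16 was at 5.43 and 6.32 in ost1-2 mock and at 4.29 and 5.09 in ost1-2 ABA, and differed from the latter by 2.51 ± 0.43 and 2.12 ± 0.43. ATGLR1.2 differed by 2.55 ± 0.29 and 2.44 ± 0.29.

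Enzymes of metabolism were GSTU28, a tau-class glutathione transferase, AAE18, an acyl-activating enzyme, and STR18, a sulfurtransferase. AAE18 was at 6.97 and 6.90 in ost1-2 ABA, and lay at 9.62 to 10.07 in the sal1-8 genotypes after ABA. GSTU28 differed by 2.68 ± 0.29 and 2.98 ± 0.29, and STR18 by 1.96 ± 0.26 and 1.60 ± 0.26 (SE). Genes named for nuclear RNA polymerase subunits were NRPD7 and NRPD2B. NRPD7 was at 3.44 and 3.72 in ost1-2 ABA, at 7.20, 7.45 and 7.82 in sal1-8 ABA and at 7.72, 7.23 and 7.38 in ost1-2 sal1-8 ABA, and the 2 sal1-8 genotypes overlapped. NRPD2B differed by 2.24 ± 0.34 and 2.56 ± 0.34. AT3G48900, whose synonym in the gene table is SEND1, an endonuclease of DNA junctions, differed by 2.48 ± 0.21 and 2.49 ± 0.21. The remaining genes with a symbol were BLT of trichome branching, iqd15 of a calmodulin-binding family, the small GTPase ARLA1B, and RMF, named for reduced male fertility. They passed in both genotypes with differences of 1.16 to 2.59.

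ABA and mock arrays were also set side by side within each genotype. As grouped, none of the 7 runs of sample numbers held both mock and ABA arrays (0). Adjacent numbers of different treatment were placed in different runs, so treatment and run cannot be told apart here. These differences carry no test, because the mock arrays were chosen for high values in the sal1-8 genotypes and that choice favours a lower value under ABA. In sal1-8, ABA minus mock had a median of −0.24 with 192 of 249 genes below 0, against a median of −0.02 over all tested probe sets. In ost1-2 sal1-8 it was −0.08 with 158 below 0, against 0.02. Past 1.5-fold, 10 genes were higher and 26 lower in sal1-8, where 6.09% and 3.95% of tested probe sets were. In ost1-2 sal1-8, 10 were higher and 12 lower, beside 5.14% and 2.39% of tested probe sets. In ost1-2, 24 genes were higher and 5 lower under ABA than mock, beside 5.71% and 5.60% of tested probe sets. In WT, where the rule itself bounds the response, 6 were higher and 7 lower, beside 9.70% and 9.58% of tested probe sets. In both sal1-8 genotypes at once, 5 genes were higher (3.14% of tested probe sets) and 7 lower (1.19% of tested probe sets).

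The 4 genes with the highest mean ABA minus mock difference were AT5G25600, AT1G76170, AT2G41473 and AT1G78840. AT1G76170 was at 7.51, 7.27 and 7.47 in sal1-8 mock and at 8.93, 9.40 and 8.59 in sal1-8 ABA. In ost1-2 sal1-8 it was at 8.30, 7.61 and 8.61 without ABA and at 9.85, 9.61 and 9.50 with it. Mock and ABA arrays did not overlap in either genotype, with differences of 1.56 and 1.48, whereas ost1-2 lay at 5.01 and 4.78 in mock and at 4.87 and 4.85 in ABA. AT5G25600 differed by 1.07 in sal1-8 and 2.07 in ost1-2 sal1-8, without overlap in either, and by 0.07 in ost1-2. AT2G41473 differed by 0.46 and 1.58, and AT1G78840 by 0.57 and 1.28. The 4 lowest were AT2G21655 (−1.88 in sal1-8 and −1.08 in ost1-2 sal1-8), AT4G20770 (−1.44 and −0.85), AT2G31100 (−1.06 and −0.94) and AT2G18340 (−1.42 and −0.57). AT2G18340 was at 4.93, 5.16 and 4.72 in sal1-8 mock and at 3.38, 3.73 and 3.43 in sal1-8 ABA, with no overlap.

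**Figure D4:**
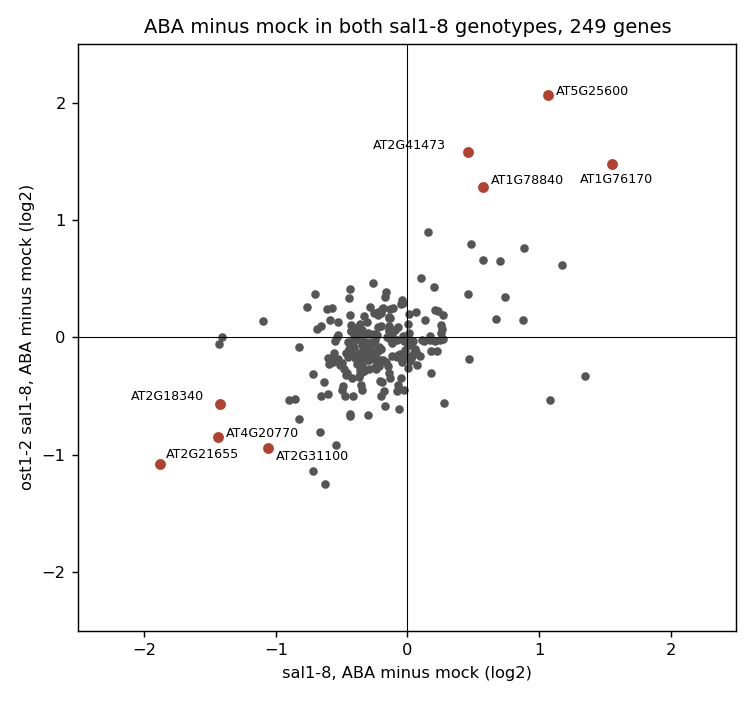
ABA minus mock difference (log2) of each of the 249 genes in sal1-8 (x axis) and in ost1-2 sal1-8 (y axis), with the 4 highest and the 4 lowest by the mean of both labeled in red. The medians lie at −0.24 and −0.08, and AT5G25600 and AT1G76170 stand apart at the upper right.

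Position on the array brought out a pattern among the genes, which was looked for after the values had been seen. Probe set numbers of the array ascend along each chromosome in 2 separate series. Between 99.8% and 100% of successive probe sets within a series are in ascending order of position in the RefSeq gene table (TAIR10.1). What distinguishes the 2 series of a chromosome is not given in the sources used here, and the gene table holds no strand. Of the 249 genes, 246 could be placed in a series with a neighbour on both sides. Levels of different probe sets also depend on their probes, so only medians over many neighbours are set side by side. In the first series, the probe set with the next lower number had a median WT mock level of 6.82 for the 113 genes placed there and of 5.11 for other tested genes, while the next higher number gave 4.95 and 5.09. In the second series it was the next higher number that was bright, at 6.76 for 133 genes beside 4.99 for other tested genes, with 4.59 and 5.02 for the next lower number. Over both series, 45.1% of the neighbours on this bright side lay above 7, compared with 22.4% on the opposite side and 25.2% for other tested genes on either side. The bright side was named from these same levels. Chromosome 4 was an exception in the first series, where 13 genes had medians of 8.11 for the next lower and 8.32 for the next higher number.

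Most of these neighbours were not themselves raised in the sal1-8 genotypes. Their sal1-8 mock minus WT mock difference had a median of 0.03 in the first series and 0.08 in the second, where neighbours of other tested genes were at −0.11 and −0.12. Their ost1-2 sal1-8 mock minus WT mock difference had medians of 0.11 and 0.15, beside −0.02 and −0.01. More than 1.5-fold above WT mock in both sal1-8 genotypes were 42 of the 246 neighbours (17.1%), 6 of them among the 249 genes, compared with 8.92% of the neighbours of other tested genes. The ABA minus mock values of the genes and of these neighbours were also set side by side. Across 246 genes, the mean ABA minus mock difference of a gene in the sal1-8 genotypes correlated with the WT ABA minus WT mock difference of the neighbour on the bright side at r = 0.515. These values share no array, but they share runs of sample numbers, and each run held either mock or ABA arrays. For the neighbour on the opposite side r was 0.00253. For other tested genes the values were 0.12 and 0.0524. With the neighbour's response also taken from the sal1-8 genotypes, on the same arrays, r was 0.659 for the bright side and 0.0394 for the opposite side, and 0.148 and 0.130 for other tested genes. Among neighbours with a WT mock level of 5 or more, the same values for the genes were 0.764 (193 neighbours) and −0.121 (115 neighbours). For other tested genes they were 0.157 (6447 neighbours) and 0.116 (6458 neighbours). Genes are not independent, and these correlations are descriptions without a test.

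By count, 25 bright-side neighbours were more than 1.5-fold higher in WT ABA than in WT mock, and the genes beside them had a median ABA minus mock difference of 0.22 in the sal1-8 genotypes. The 27 genes beside a neighbour more than 1.5-fold lower had a median of −0.37, and the 194 others −0.17. On the opposite side the medians were −0.09, −0.13 and −0.19. AT1G76170 and AT5G25600 each had a bright-side neighbour that was higher in WT ABA, by 1.09 and 1.15. AT1G78840 lay beside AT1G78850, higher by 1.21. In the same order, the WT mock levels of these neighbours were 4.76, 10.44 and 5.02. On the opposite side, the neighbours of AT1G76170 and AT1G78840 were brighter, at 8.40 and 9.79, and that of AT5G25600 was dimmer, at 4.21. AT3G04200 (−0.73) lay beside AT3G04210, which was lower by 1.55 in WT ABA. There were exceptions. AT3G45660 changed by −0.01 beside NAXT1, a nitrate efflux transporter of the plasma membrane, which was lower by 2.48 in WT ABA, and AT5G49500 by −0.04 beside AT5G49525, which was higher by 2.44. NAXT1 itself was at −0.02 in the sal1-8 genotypes.

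**Figure D5:**
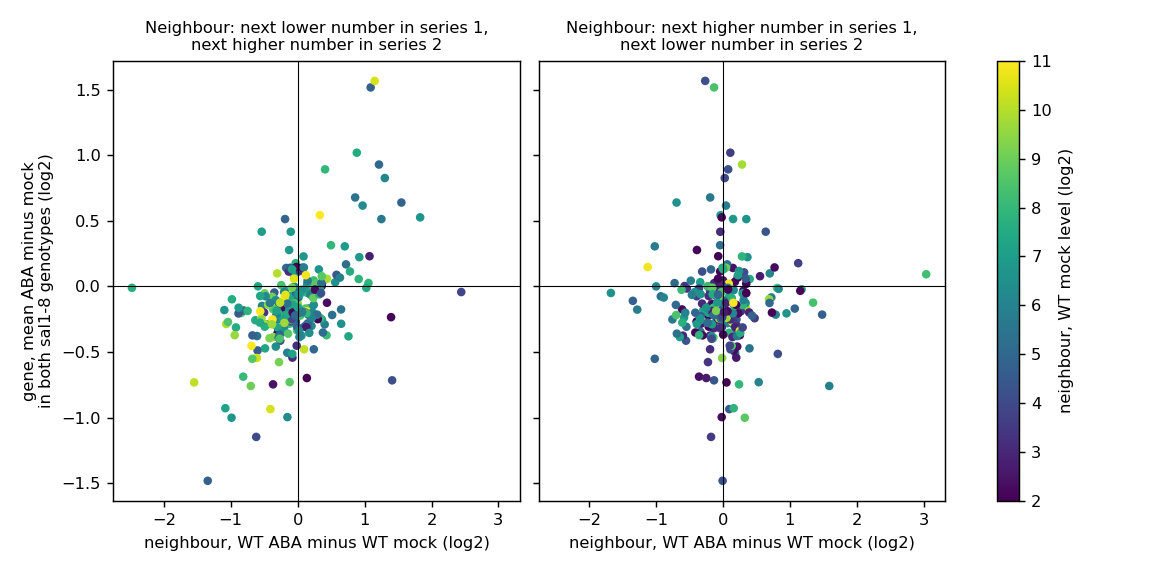
For 246 of the genes, mean ABA minus mock difference in both sal1-8 genotypes (y axis, log2) against the WT ABA minus WT mock difference of the neighbouring probe set (x axis, log2), for the bright side (left, r = 0.515) and the opposite side (right, r = 0.00253). Colour gives the neighbour's WT mock level, which is higher on the left, with a median of 6.80 against 4.80.

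The genes were spread over all chromosomes. Chromosome 5 held 27.3% of them and 23.0% of tested genes, chromosome 3 held 23.3% and 20.3%, and chromosome 1 held 20.9% and 25.8%. Chromosome 2 held 16.9% and 15.2%, and chromosome 4 held 11.2% and 14.9%. Within 200 annotated genes on either side of SAL1 lay 4 of them (1.61%), beside 1.22% of tested genes. In 7 cases a pair stood next to each other in the gene table, among them AT3G23460 with AT3G23470 and AT5G18360 with AT5G18370. For 4 genes, another tested probe set of the same gene exists. It differed by −0.19 and 0.21 between ABA-treated sal1-8 genotypes and ost1-2 ABA for AT1G72270, by 0.31 and 0.91 for AT2G18340, by −0.03 and −0.35 for AT3G54630 and by 0.36 and 0.48 for EXPA20, each a smaller value than that of the probe set among the 249.

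None of 15 tested genes on the pathway lists (0) was among the 249, which make up 1.81% of the tested probe sets. These 15 cover only part of the lists, with 1 gene each for high light, sulfur limitation and anthocyanin. The lists for phosphate limitation, salicylic acid and calcium kinases were not covered. Of 4 tested genes of PAP removal and sulfate activation, SAL2, AHL, APS3 and APS4, 0 were members and 0 passed against ost1-2 ABA in either genotype. SAL2, a relative of SAL1, was lower in both sal1-8 genotypes than in WT without ABA (−1.27 and −1.36), a comparison in which 9.82% and 6.10% of tested probe sets were lower. ZAT10, a zinc finger factor of high light responses, was higher than in ost1-2 after ABA by 2.47 and 2.09, and DFR, an enzyme of anthocyanin synthesis, by 4.37 and 3.19. Neither met the rule for the 249 genes. Without ABA, ZAT10 exceeded WT by 1.29 in sal1-8 and by 0.77 in ost1-2 sal1-8, both less than the rule required. ZAT10 was also higher in ost1-2 mock (8.41) and in WT ABA (9.20) than in WT mock (7.36), beyond the limits of the rule. DFR was higher in ost1-2 mock (7.45) than in WT mock (4.75), again beyond the limit. In ost1-2 ABA, the reference for the differences after ABA, both were lower than in ost1-2 mock, at 7.44 for ZAT10 and 3.92 for DFR. Without ABA, ZAT10 was at 8.65 in sal1-8 and 8.13 in ost1-2 sal1-8, and DFR at 8.76 and 7.58. Of 6 tested cold and ABA responsive genes, KIN1, KIN2, COR15A, COR15B, COR47 and LTI30, 0 were higher against ost1-2 ABA, with 3 lower in sal1-8 and 2 lower in ost1-2 sal1-8. Over all tested probe sets, 10.7% and 4.14% were lower in these comparisons. All 6 genes were higher in ost1-2 mock than in WT mock, and higher in ABA than in mock in both sal1-8 genotypes. LTI30 was at 3.08 in WT mock, 5.08 in ost1-2 mock and 5.74 in ost1-2 ABA. It went from 1.86 to 3.87 in sal1-8 and from 1.72 to 3.91 in ost1-2 sal1-8. BGLU28 of sulfur limitation and PDF1.2a and JMT of the jasmonate list passed in neither comparison with ost1-2 ABA. BGLU28 lay at 3.55 or lower on every array, and the group means of PDF1.2a lay between 1.49 and 3.38. Of the markers of other cells, SWEET11 of phloem passed in no comparison. FAMA of guard cells was lower in sal1-8 ABA than in ost1-2 ABA by 0.77. Without ABA, TRY of trichomes exceeded WT by 1.22 in sal1-8 and by 1.31 in ost1-2 sal1-8. After ABA it did not pass against ost1-2. Its level was 7.19 in ost1-2 mock and 6.75 in ost1-2 ABA, beside 5.46 in WT mock and 5.22 in WT ABA. It was 6.73 in sal1-8 ABA and 6.52 in ost1-2 sal1-8 ABA. VGD1 of pollen was under 3.02 on every array and was not tested. The part of cell composition in the rise of the 249 genes was not tested.

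At the thresholds of the rule, the values lay close together. AT1G12775 (1.5) and AT5G16960 (1.51) were just inside the limit for sal1-8, and AT1G52910 and AT4G27790 (both 1.48) just outside. For ost1-2 sal1-8, AT2G45940 and AT1G74830 (both 1.53) were inside, and AT5G03390 and AT3G53190 (both 1.49) outside. For the highest group mean, AT2G38890 (4.03) and AT5G44980 (4.15) were inside, and AT1G08120 (3.98) and AT1G13310 (3.91) outside. For the gap between the mock arrays, AT2G43800 (0.17) and AT5G16960 (0.18) were inside, and AT3G22275 (−0.04) and AT4G22485 (−0.07) outside. For ost1-2 mock, AT2G33850 and AT5G15940 (both 0.48) were inside, and AT5G43640 and AT4G08250 (both 0.51) outside. For WT ABA, AT5G16960 (0.72) and AT3G57600 (0.71) were inside, and AT1G07400 (0.80) and AT5G07150 (0.83) outside.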

How the data were processed

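The platform was the Affymetrix Arabidopsis Gene 1.0 ST array. The authors deposited 22 columns of log2 intensities of 38408 probe sets, background corrected, quantile normalized and summarised with oligo 1.28.0 in R 3.1.0, per the labels and the study's methods, and tested with limma 3.20.1. No column belonged to other samples (0). The array annotation gives 1 gene for 16722 probe sets, several for 759 and lists no entry for 20927. Genes among the latter were not analysed here. For 2 of the 249 genes the gene table has no locus.

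The values were used as deposited. The 13780 named probe sets with the highest group means (the dimmest at 3.02) were fitted with limma 3.58.1 in R 4.3.3, with 1 coefficient per group. A call needed a difference of more than 1.5-fold and an adjusted p (Benjamini-Hochberg) below 0.05. The script was tested on simulated data. The labels do not say that samples of a group came from separate batches of plants, so p-values measure the spread between these samples. The number of arrays limits the precision.

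The members and lists were chosen with earlier results of these data known. Named were the 12 highest and 4 lowest members by mean difference from ost1-2 ABA, the 4 highest and 4 lowest by ost1-2 sal1-8 ABA minus sal1-8 ABA and by mean ABA minus mock, listed genes, and genes at the thresholds. Others were chosen after their values were seen, as was the comparison with neighbouring probe sets. Alternatives changed the probe sets tested, the fold, the arrays fitted, the variance model, the array scaling, the sample run as a block, and left out each array.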

Additional observations from a re-analysis of the deposited data

Results flagged for a closer look

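For 2 named genes, every ABA array of a genotype lay on one side of its mock arrays in ost1-2 and on the other side in a sal1-8 genotype. The difference of responses was not tested in either case. In AT5G06520, ABA minus mock was −0.33 in ost1-2 and 0.61 in ost1-2 sal1-8, a difference of −0.94. In AT3G05600, it was 0.75 in ost1-2 and −0.70 in sal1-8, a difference of 1.46. The mock arrays of these genes took part in choosing them. Mock and ABA arrays came from different runs of sample numbers, as these were grouped here.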

How the results depend on the processing

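The number of genes passing against ost1-2 ABA stayed within 1.5 times the main count under every alternative run. It was 235 to 246 in sal1-8 and 235 to 245 in ost1-2 sal1-8 with all arrays, and 227 to 244 and 224 to 242 with 1 array left out. The counts for ost1-2 sal1-8 ABA against sal1-8 ABA moved more. With only the arrays compared, 13 genes were higher and 5 lower, with array weights 13 were higher, and with the sample run as a fixed block 4 were lower. With 1 array left out, 0 to 8 were higher and 3 to 9 lower. The count of 3 higher genes went to 0 without replicate 1 of ost1-2 sal1-8 ABA, to 1 without replicate 2 of it or without replicate 1 or 3 of sal1-8 ABA, to 8 without replicate 3 of ost1-2 sal1-8 ABA or of sal1-8 mock, and to 5 or 6 without WT mock replicate 1 or 2, WT ABA replicate 3, or ost1-2 sal1-8 mock replicate 1 or 3. The count of 8 lower genes went to 5 without replicate 1 or 2 of sal1-8 ABA, to 4 without replicate 2 of ost1-2 sal1-8 ABA and to 3 without replicate 3 of it. Between the 2 sal1-8 genotypes after ABA, leaving out an array of a group not compared left the differences unchanged, with a median of 0.16. Only their adjusted p moved then. The cause of the other moves was not tested. The rule gave 221 genes after a further quantile normalization (all 221 shared), 208 after centring (203 shared) and 225 to 265 with 1 array left out, of which 208 to 249 were shared. The 265, without replicate 1 of WT mock, shared 208 with the 249. AT2G21655 changed sign in sal1-8 ABA against ost1-2 ABA without replicate 2 of ost1-2 ABA, and ranged from −0.72 to 0.25 with 1 array left out. Of 42 comparisons of named genes, 28 kept their direction and call under every alternative. No paired analysis was possible because the labels tie no replicate of a group to one of another group by number. The runs of sample numbers, grouped here and not given by the labels, were fitted as a block instead. With them, 235 and 235 genes passed against ost1-2 ABA (fixed) or 244 and 241 (random). The dimness of most of these genes in WT and ost1-2 limits how precisely their fold changes can be given.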
